A study of Mus musculus with 6 samples.

Results

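The activity-induced immediate early genes are the first genes that neurons transcribe after a burst of synaptic activity. The members were taken by gene symbol from a list of 10: Fos, Fosb, Junb, Egr1, Egr2, Egr3, Egr4, Arc, Npas4 and Nr4a1. Of these, 7 had a row among the 15705 genes of the deposited table. Junb, Egr1 and Egr4 had no row and were not analysed here.

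The data are RNA-seq of mouse cortical neuron cultures, with 3 libraries of neurons given FCK1.3GW-N40K lentivirus and 3 of neurons given the control lentivirus FCK1.3GW. Both groups were C57BL/6 cortical neurons taken at embryonic day 18, and both received lentiviral particles at day 7 in vitro for 3 days. The N40K construct carried N40K and the control construct carried EGFP, each behind a short CaMKII promoter, a promoter used to express genes in excitatory neurons, and each with WPRE and LTR elements. N40K is an N-terminal fragment of U1-70K, the product of Snrnp70, a protein of the U1 snRNP that recognises the start of introns. Whether the replicates came from separate cultures is not stated in the labels, and the p-values below therefore reflect the spread among these 6 libraries, which may be technical.

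Calcium entering an active neuron turns on kinases that phosphorylate factors already bound to DNA, such as CREB and the SRF partners, and these start transcription of the immediate early genes within minutes without new protein synthesis. Fos and Fosb are AP-1 subunits, Egr2 and Egr3 are zinc-finger factors, Nr4a1 is an orphan nuclear receptor and Npas4 is a bHLH-PAS factor. Arc encodes a cytoskeleton-associated protein that promotes AMPA receptor endocytosis at synapses. Their mRNAs are made in bursts and decay quickly, so unspliced RNA of such genes is usually taken as a sign of recent transcription. Each value here is an Sd score, read as splicing deficiency, a ratio in which a higher score is taken to mean more unspliced relative to spliced RNA. The score cannot tell less unspliced RNA apart from more spliced RNA, nor either of these apart from a changed mix of cells in the culture.

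The promoters of 5 of the 7 genes had an entry in the RefSeq table of GRCm38.p6, and those of Egr3 and Arc had none. Each of the 5 genes had, within 250 bases before at least 1 of its starts, the CRE half-site TGACG on either strand, the core of the element that CREB binds; of all 27025 genes with a promoter entry, 19.8% had it in at least 1 window. The full CRE TGACGTCA, which contains the half-site on both strands, was in 0 of the 5 genes and in 1.77% of all genes. The CArG box of SRF, searched as an exact match in the same 250 bases, was found in Egr2 and in 1.62% of all genes. Boxes further from the start or with a mismatch were not searched for. Egr2 has several annotated starts, which gives it more windows than a gene with 1 start. The stretches before the starts of Fos, Nr4a1 and Npas4 are shown because these genes had lower mean scores with N40K, hold more than 1 half-site each and have a single start in the table; half-sites are in capitals. Egr2, with several starts, is not printed.
Fos promoter, chr12:85473640-85473889, plus strand: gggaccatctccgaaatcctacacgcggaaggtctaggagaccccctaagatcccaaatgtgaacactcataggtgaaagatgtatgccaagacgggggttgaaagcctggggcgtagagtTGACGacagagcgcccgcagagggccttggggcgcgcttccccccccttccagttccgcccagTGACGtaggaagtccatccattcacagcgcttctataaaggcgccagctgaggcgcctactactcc
Nr4a1 promoter, chr15:101266596-101266845, plus strand: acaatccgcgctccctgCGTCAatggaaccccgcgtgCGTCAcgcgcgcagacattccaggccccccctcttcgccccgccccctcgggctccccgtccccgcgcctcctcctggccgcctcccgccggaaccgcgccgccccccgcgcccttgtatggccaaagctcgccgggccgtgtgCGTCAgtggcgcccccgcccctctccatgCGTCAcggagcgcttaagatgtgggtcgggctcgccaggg
Npas4 promoter, chr19:4989972-4990221, minus strand: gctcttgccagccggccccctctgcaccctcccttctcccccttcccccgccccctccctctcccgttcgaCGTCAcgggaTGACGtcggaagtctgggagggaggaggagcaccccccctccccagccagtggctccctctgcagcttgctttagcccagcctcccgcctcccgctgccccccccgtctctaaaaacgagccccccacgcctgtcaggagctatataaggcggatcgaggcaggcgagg
Fos and Npas4 hold 2 half-sites each and Nr4a1 holds 4. The Nr4a1 stretch belongs to a start that lies inside the longer transcript used below for its exons. A match is a description of the sequence, and the score measures no promoter.

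The genes are short and have few introns. In GENCODE M21, gene length was 3384 bases for Fos, 3488 for Arc, 5412 for Egr3, 5962 for Npas4, 6714 for Egr2, 7356 for Fosb and 20527 for Nr4a1. The median over the 13687 scored genes with a coding transcript was 27414 bases. Egr2 and Egr3 have 1 intron each, Arc 2, Fos and Fosb 3 each, and Nr4a1 and Npas4 7 each, against a median of 9 over all these genes. None of the 7 overlaps another annotated gene. All introns of Fos, Fosb, Egr2, Egr3 and Npas4 lie between coding exons, while Nr4a1 has 5 there and 2 ahead of the start codon. Both introns of Arc lie in its 3′ untranslated region, and its introns are the shortest in sum, at 431 bases. By the transcripts used, 25 of the 13687 genes (0.183%) have all their introns in that region.

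**Figure D1:**
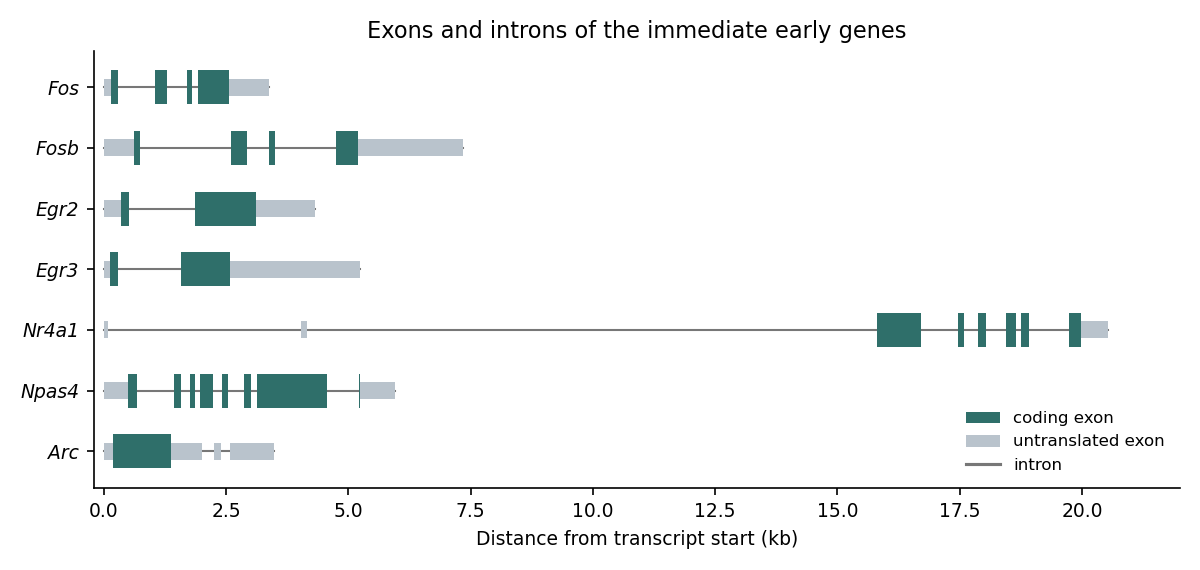
Exons and introns of the 7 immediate early genes, drawn to scale from the start of 1 principal GENCODE M21 transcript each, with distance in kb; tall boxes are coding exons, low boxes untranslated exons and lines introns. Arc is the gene whose introns, 2 in number, both follow the coding exon, and Nr4a1 is the longest at 20527 bases.

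U1 pairs with the last bases of an exon and the first bases of the intron. The exon joins of Egr3 and Fos are shown because these genes had the smallest adjusted p of the list, with 12 bases on each side of the join and the last 3 bases of the upstream exon in capitals. They were read from the GENCODE M21 transcripts, so the intron bases are not shown.
Egr3 junction 1: agatggctaCAGagaatgtgatgg
Fos junction 1: gtcaacacaCAGgacttttgcgca
Fos junction 2: aaagtagagCAGctatctcctgaa
Fos junction 3: acactccaaGCGgagacagatcaa
The upstream exon ended in AG at 15 of the 24 joins of the 7 genes (62.5%) and at 56.2% of the 154392 joins of all scored genes with a coding transcript. Fos junction 3 is one that does not.

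N40K neurons had lower mean scores than control neurons for 6 of the 7 genes, and higher for Arc. One gene, Egr3, fell and 0 rose (limma, Benjamini-Hochberg adjusted p under 0.05 over all 15705 genes). Over all genes 4.11% fell and 21.5% rose, and with 7 genes, 1 fall is too few to set against that share. That balance of rises and falls belongs to the deposited scale: centring each library on its median gave 1531 rises and 2883 falls, and quantile normalization 2022 and 1883. Rises numbered as few as 1613 when 1 library, control replicate 2, was left out. For 3 of the 7 genes, Egr3, Fos and Nr4a1, every N40K library lay below every control library, a pattern found in 8.67% of all genes. For 0 of the 7 did every N40K library lie above every control library, as it did for 33.6% of all genes. The median log2 change over the 7 genes was -0.39, and over all genes 0.06. All log2 changes are of score + 0.01, which understates the change of low scores, and ratios are of mean scores, N40K over control.

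Egr3, a zinc-finger factor that acts downstream of activity and controls further synaptic genes, was the gene that fell. Its score was 0.0117, 0.0140 and 0.0098 in the 3 N40K libraries, against 0.0200, 0.0203 and 0.0201 in the 3 control libraries. All N40K libraries lay well below the control libraries, which differed from each other by a factor of 1.015 at most. The means were 0.0118 ± 0.0021 with N40K and 0.0201 ± 0.000153 in controls (SD, n = 3 each), a ratio of 0.588. The log2 change was -0.47 ± 0.08 (SE), with a limma adjusted p of 0.0121. The call held in each of the 17 other fits tried, with adjusted p from 0.0164 to 0.0475 when 1 library was left out. The fit without a filter, 1 of the 17, equals the main fit because the filter removed 0 genes.

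Egr2, the relative of Egr3 that is also known for its part in peripheral myelination, scored 0.0173, 0.0081 and 0.0079 in N40K libraries, against 0.0211, 0.0125 and 0.0183 in control libraries. N40K replicates 2 and 3 were below all controls, and N40K replicate 1 lay within the control range. The ratio of means was 0.642 and the log2 change -0.39 ± 0.21 (SE; limma adjusted p = 0.229). Without N40K replicate 1 the change was -0.59, with an adjusted p of 0.0477, so that library decides the call.

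Fos, the AP-1 subunit most used as a marker of active neurons, scored 0.0096, 0.0167 and 0.0140 in N40K libraries, against 0.0228, 0.0178 and 0.0246 in control libraries. The groups did not overlap, but the highest N40K library and the lowest control library were close. The means were 0.0134 ± 0.00358 and 0.0217 ± 0.00352 (SD, n = 3 each), a ratio of 0.618. The log2 change of -0.44 ± 0.14 (SE) did not pass the test (limma adjusted p = 0.0705; 95% interval -0.79 to -0.09).

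Fosb, the AP-1 subunit whose stable splice form ΔFosB accumulates after repeated activity, scored 0.0299, 0.0354 and 0.0179 in N40K libraries, against 0.0325, 0.0685 and 0.0292 in control libraries. The groups overlapped, and control replicate 2 stood apart as the highest value. The ratio of means was 0.639 and the log2 change -0.46 ± 0.32 (SE; limma adjusted p = 0.353). Without control replicate 2 the change was -0.14 (adjusted p = 0.72). For a gene known for regulated splicing, the score gives 1 value per gene and does not separate that event from the other introns.

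Nr4a1, a nuclear receptor that limits excitatory synapse density in active neurons, scored 0.0288, 0.0285 and 0.0318 in N40K libraries, against 0.0400, 0.0332 and 0.0386 in control libraries. All N40K libraries lay below all controls. The shift was the smallest of the 6 lower genes but also had a narrow spread: the ratio of means was 0.797 and the log2 change -0.25 ± 0.08 (SE; limma adjusted p = 0.0769; 95% interval -0.45 to -0.05).

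Npas4, a factor induced selectively by calcium influx that recruits inhibitory synapses onto the active neuron, scored 0.0252, 0.0150 and 0.0292 in N40K libraries, against 0.0271, 0.0246 and 0.0413 in control libraries. The groups overlapped, with N40K replicates 1 and 3 within the control range. The ratio of means was 0.746 and the log2 change -0.31 ± 0.22 (SE; limma adjusted p = 0.368).

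Arc scored 0.0655, 0.0181 and 0.0350 in N40K libraries, against 0.0323, 0.0319 and 0.0344 in control libraries. The control libraries were nearly alike, and the N40K libraries lay on both sides of them. Within the N40K group the highest score was 3.62 times the lowest, the widest spread of the 7 genes, against 1.08 times within controls. The means were 0.0395 ± 0.024 and 0.0329 ± 0.00134 (SD, n = 3 each), with a log2 change of 0.09 ± 0.35 (SE; limma adjusted p = 0.881). The 95% interval of -0.76 to 0.94 is wide enough to hold changes as large as those of the other genes in either direction. Arc was -0.27 without N40K replicate 1 and 0.44 without N40K replicate 2, and was negative after centring libraries on their median or quantile normalization, at -0.04 in both.

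**Figure D2:**
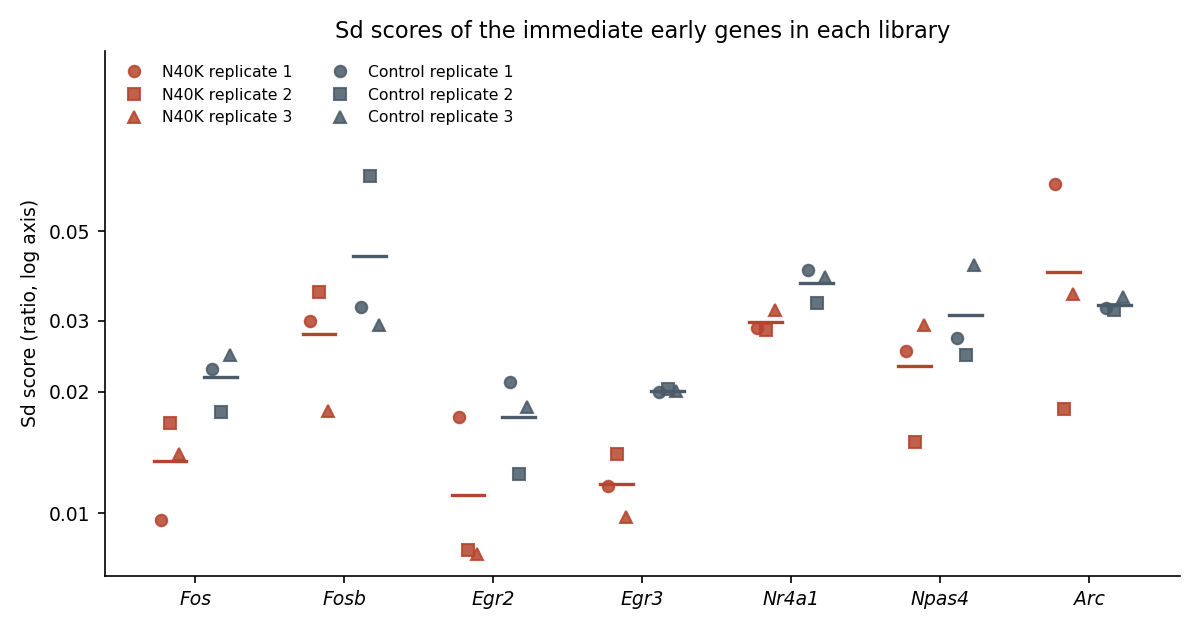
Sd score (ratio, log axis) of each gene in the 3 N40K libraries (left, red) and the 3 control libraries (right, grey), with a bar at the group mean and 1 marker shape per replicate number. Egr3, Fos and Nr4a1 show no overlap, and Arc ranges from 0.0181 to 0.0655 with N40K.

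The libraries did not move all genes alike. The lowest of the 6 scores was in N40K replicate 2 for 3 genes, in N40K replicate 3 for 3 genes and in N40K replicate 1 for Fos. The highest of the 6 scores was in a control library for 6 genes, with 2 genes in each control library. The median score of the 7 genes was 0.0252, 0.0167 and 0.0179 in N40K libraries, against 0.0271, 0.0246 and 0.0292 in control libraries. N40K replicate 1 thus had a median within the control range. The order of the genes by mean score was Arc, Nr4a1, Fosb, Npas4, Fos, Egr3 and Egr2 with N40K, and Fosb, Nr4a1, Arc, Npas4, Fos, Egr3 and Egr2 in controls. Each neighbouring pair in both orders had overlapping ranges over its 3 libraries, and scores of genes with unlike introns are not on 1 scale of splicing. Their mean scores over all 6 libraries lay between the 49.1 percentile (Egr2) and the 68.9 percentile (Arc) of all genes. The log2 changes of the 6 lower genes lay between the 3.65 percentile (Egr3) and the 8.22 percentile (Nr4a1) of all genes, and that of Arc at the 57.7 percentile.

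Across the table the N40K libraries had higher median scores, at 0.0146, 0.0153 and 0.0163, than control libraries, at 0.0136, 0.0127 and 0.0133, so how libraries are scaled matters. Centring each library on its median lowered the median log2 change of all genes by 0.13, and with it 3 of the 7 genes fell, Egr3, Fos and Nr4a1, against falls in 18.4% of all genes. The same 3 genes fell after quantile normalization, against 12% of all genes, and after centring on the median deviation, against 9.67%. Limma adjusted p-values for Fos were 0.0209, 0.022 and 0.0387 under the 3 scalings, and for Nr4a1 0.0138, 0.012 and 0.0288. Set against the median gene of the deposited scale, the log2 change of Egr3 was -0.53, of Fos -0.50 and of Nr4a1 -0.31. The 6 genes other than Arc lay below 0 under each of the 4 scalings.

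**Figure D3:**
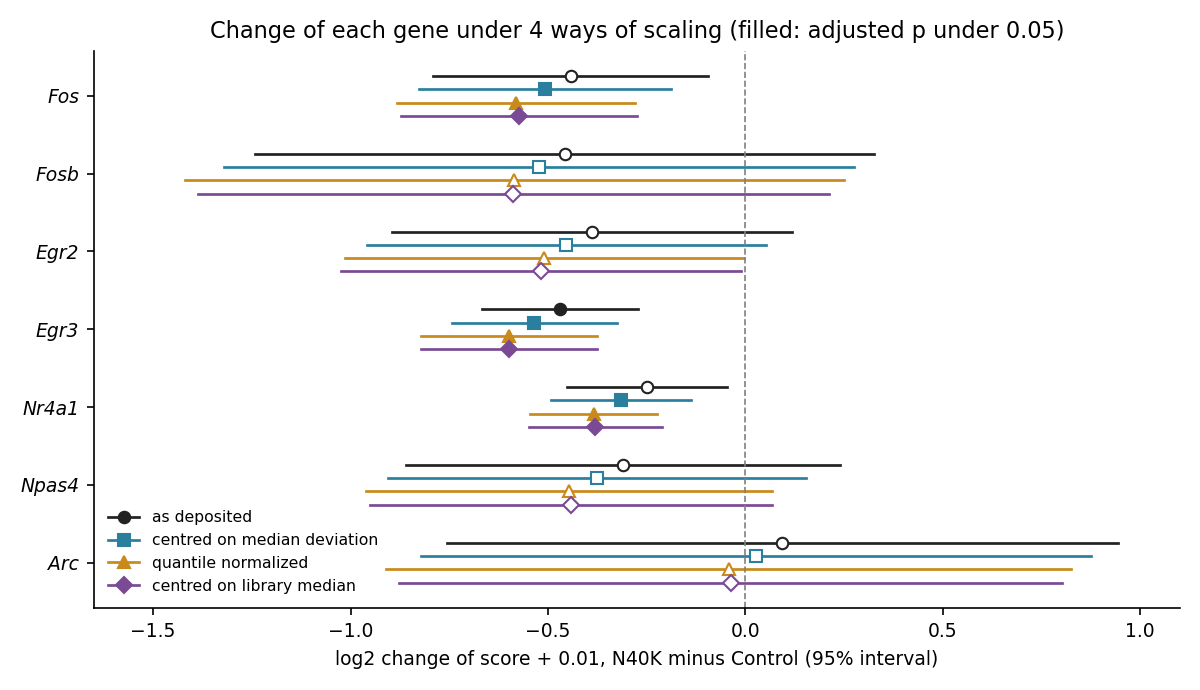
Log2 change of score + 0.01 (N40K minus control) for each gene, with 95% intervals from limma, on the deposited scale and under 3 scalings between libraries; filled symbols have an adjusted p under 0.05. Egr3 is filled throughout, Fos and Nr4a1 under the 3 scalings, and Arc stays near 0 with a wide interval.

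Among other transcription factors of the first response, 16 of 22 listed had a score; 3 fell (18.8%), 1 rose (6.25%) and 12 did not pass, where 4.11% of all genes fell and 21.5% rose. The median log2 change was -0.04, and 0.06 over all genes. Nfil3, a basic leucine zipper repressor, fell to 0.0087 ± 0.0005 with N40K, against 0.0138 ± 0.00116 in controls (limma adjusted p = 0.00883). The fall of Myc, a growth-promoting factor, and that of Bhlhe40, a clock-linked repressor, had ratios of 0.72 and 0.567, and the rise of Maff, a small Maf protein, a ratio of 1.77. The call of Myc ended without any control library or without N40K replicate 1 or 2 (highest adjusted p = 0.0907). The call of Bhlhe40 ended without control replicate 1 or 2 or N40K replicate 1 or 2 (0.136), and that of Maff without any control library or without N40K replicate 1 (0.1). Maff also lost its call after centring libraries on their median (0.0567) and after quantile normalization (0.0656). Nr4a2 and Nr4a3, the relatives of Nr4a1, had ratios of 1.12 and 1.23 and did not pass (adjusted p = 0.457 and 0.0824). For Nr4a3 every N40K library lay above every control library. Among the AP-1 relatives, Fosl1 and Fosl2 had ratios of 0.931 and 0.961 and did not pass (0.579 and 0.863).

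Of 29 activity-induced effectors and feedback genes listed, 22 had a score; 8 rose (36.4%), 1 fell (4.55%) and 13 did not pass, where 21.5% of all genes rose and 4.11% fell. The median log2 change was 0.02. After centring libraries on their median 3 rose and 6 fell. Homer1 scored 0.0173, 0.0172 and 0.0204 in N40K libraries, against 0.0050, 0.0049 and 0.0051 in control libraries, a ratio of 3.66 (limma adjusted p = 0.00154). Activity makes this scaffold gene produce the short form Homer1a, which ends inside an intron. Pcsk1, a prohormone convertase, had a ratio of 3.21 (0.0038) and Bdnf, the neurotrophin, a ratio of 2.38 (0.0092). Mcl1, an anti-apoptotic BCL2 relative, rose 1.76-fold, Arf4, a small GTPase, 1.69-fold and Inhba, an activin subunit, 1.51-fold. The scores of Bdnf and Arf4 were low, with means of 0.0031 and 0.0024 with N40K, against 0.0013 and 0.0014 in controls. Inhba lost its call without any control library or without N40K replicate 3 (highest adjusted p = 0.0802), and Mcl1 without N40K replicate 2 (0.0527). After centring libraries on their median the calls of Bdnf, Inhba and Arf4 ended (0.112, 0.0833 and 0.792), and after quantile normalization those of Inhba and Arf4 (0.0958 and 0.0842). The fall was in Dusp5, a phosphatase that turns off ERK, with a ratio of 0.703 (adjusted p = 0.0396), named after its value was seen, as are Dusp1 and Rgs2. Its call ended without control replicate 1 or 2 or N40K replicate 2 or 3 (highest adjusted p = 0.118). Dusp1, a MAP kinase phosphatase, scored 0.0246, 0.0202 and 0.0388 in N40K libraries, against 0.0604, 0.0980 and 0.0446 in control libraries, a ratio of 0.412 without overlap that did not pass (0.0562). Rgs2, a regulator of G protein signalling, also showed no overlap, with a ratio of 0.784 (0.0642). The rises of this list numbered 5 without control replicate 1, 2 or 3 or without N40K replicate 2 or 3. Without the lowest 25% of genes, 17 of the 22 genes remained and 4 rose.

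Of 42 genes listed from the pathway that leads from calcium entry to these promoters, all had a score; 15 rose (35.7%), 1 fell (2.38%) and 26 did not pass, where 21.5% of all genes rose and 4.11% fell. The median log2 change was 0.13, and 14.3% of the list had a lower value with N40K, against 33% of all genes. Ppp3cb, a catalytic subunit gene of calcineurin, had a ratio of 2, and the SRF coactivator genes Mkl1 and Mkl2 ratios of 2.09 and 1.63. The kinase gene Rps6ka2 rose 1.78-fold, Elk3, an SRF partner, 1.76-fold, and Cacna1d, an L-type calcium channel, 1.5-fold. Limma adjusted p-values of these 6 genes lay between 0.00165 and 0.0121, and the call of Mkl2 ended without control replicate 2 (0.0502). The mean scores of Ppp3cb, Mkl1, Mkl2 and Rps6ka2 were low, at 0.0014 to 0.0022 in controls and 0.0024 to 0.0044 with N40K. Creb1 itself had a ratio of 1.13 and did not pass (0.521). Ppp3ca, another catalytic subunit gene of calcineurin, had a ratio of 1 and did not pass. The SRF partners Elk1 and Elk4 had ratios of 0.849 and 1.25 and did not pass (0.312 and 0.101). For Elk4 every N40K library lay above every control library. The rises numbered 8, 6 and 7 without control replicates 1, 2 and 3 and 9 without N40K replicate 2. Without the lowest 25% of genes, 20 of the 42 genes remained and 3 rose. After centring libraries on their median 4 of the 42 genes rose and 10 fell. Under that scaling the calls of Cacna1d and Mkl2 ended (0.226 and 0.955) and Rps6ka2 turned to just under 0 (0.977). After quantile normalization 12 rose and 2 fell, and centred on the median deviation 12 rose and 3 fell. Cacna1d, Mkl2 and Rps6ka2 kept their calls under both of these. The balance of rises and falls thus differed with the scaling, most with centring on the library median.

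**Figure D4:**
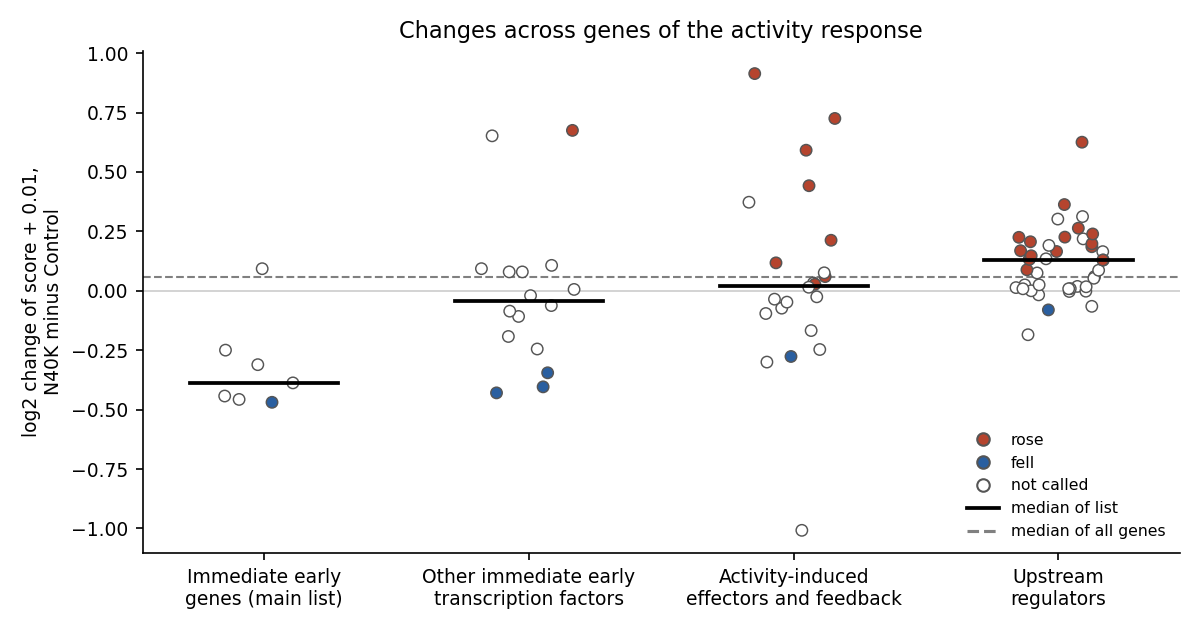
Log2 change of score + 0.01 (N40K minus control) of each scored gene in the main list and 3 further lists of the activity response; red points rose, blue points fell and open points did not pass, with a black bar at each list's median. The medians are -0.39, -0.04, 0.02 and 0.13, and the dashed line is the median of all genes at 0.06.

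The lists also differed in gene length. The median gene length was 5962 bases in the main list, 11798 in the other transcription factors, 10925 in the effectors and 66727 in the upstream regulators, with medians of 3, 3, 4 and 13 introns. The part of gene length in the differences between lists was not tested.

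The mean of the 7 standardised profiles over the 6 libraries was used to look for genes with a like pattern. Outside the lists the highest Pearson r was found for Tmpo (0.994), a nuclear lamina protein gene, Wnt7b (0.993), a secreted Wnt ligand, and Nov (0.993), a matricellular protein gene. Of the 15705 scored genes, the members left out, 103 had r of 0.95 or more. Each r rests on 6 libraries, and a high r over so few says little. Tmpo, Wnt7b and Nov had ratios of 0.785, 0.571 and 0.679. These genes were chosen for following a profile that is lower with N40K in the same libraries, so their lower scores are a description and were given no test. Among the members, Nr4a1 had the highest r with the mean profile (0.869), and Arc the lowest (0.192). Each member is itself part of that mean, which raises its r.

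Snrnp70, of whose product N40K is a fragment, scored 0.0242, 0.0224 and 0.0234 in N40K libraries, against 0.0215, 0.0210 and 0.0223 in control libraries, and did not pass (limma adjusted p = 0.376). Every N40K library lay above every control library, though by little. Whether reads from the N40K construct entered this score is not known, so it may not be the score of the cells' own gene alone. Scores were present for 10 of 11 neuron markers, 7 of 7 astrocyte, 4 of 8 microglia, 6 of 8 oligodendrocyte lineage, 5 of 8 dividing progenitor and 4 of 6 endothelial and mural markers. A score is a ratio and no abundance, so the labelled cell type could not be checked from it.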

How the data were processed

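RNA of 6 libraries, 3 N40K and 3 control, was measured by poly(A) RNA-seq with a stranded kit and paired reads, per the labels' protocols. Build mm9 and the tools bedtools 2.16.1, BWA, STAR and CASAVA are listed without their roles, per the submitters' processing notes. The authors deposited 1 table of Sd scores, taken here as a linear ratio because no value is negative and some exceed 1. How the score was computed, from which annotation and with which filters or strand setting, is not given in the sources used here. Without read totals the depth behind a score is unknown, so no counting interval is given. Columns were assigned to libraries by name; 0 columns of values were left unused and 0 were identical.

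The test was limma (version 3.58.1, R 4.3.3) on log2(score + 0.01), using lmFit and eBayes with a variance trend. It was 2-sided, and p-values were adjusted by Benjamini-Hochberg over 15705 genes with a threshold of 0.05. The filter, a score above 0 in at least 3 libraries, removed 0 genes. The steps were tested on simulated data. The gene that fell among the upstream regulators is not reported here by name. "Rose" and "fell" refer to scores as deposited unless a scaling is named.

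The members and lists were chosen with earlier results of these data known. Genes named by rule were all members with a row, up to 6 called genes with the smallest adjusted p in each further list, the 3 genes most like the members' mean profile, and Snrnp70. Named outside this rule were Nr4a2, Nr4a3, Fosl1, Fosl2, Dusp5, Dusp1, Rgs2, Creb1, Ppp3ca, Elk1 and Elk4. Gene structures came from GENCODE M21, on another build than mm9, matched by Ensembl identifier for 14911 genes (94.9%). For each gene 1 coding transcript was used, the best-ranked principal one. Promoter sequences came from RefSeq on GRCm38.p6. The alternatives were other pseudocounts (0.001, 0.1 and none), other filters, scalings, variance models, the replicate number as a block, and leaving out each library.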

Additional observations from a re-analysis of the deposited data

How the results depend on the processing

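Of the 7 genes, Egr3 kept its fall in all 17 other fits, of which 1, without a filter, equals the main fit. Members that fell numbered 3 after centring libraries on their median, quantile normalization and centring on the median deviation, and 1 to 2 with a library left out; members that rose numbered 0 in every fit. Under these scalings the log2 changes became -0.57, -0.58 and -0.51 for Fos and -0.38, -0.38 and -0.32 for Nr4a1, all past the threshold. Arc was reversed by the first and second scaling (-0.037 and -0.043). With a library left out, Arc ranged from -0.27 to 0.44, Egr2 from -0.59 to -0.28, Egr3 from -0.54 to -0.40, Fos from -0.54 to -0.32, Fosb from -0.64 to -0.14, Npas4 from -0.45 to -0.12 and Nr4a1 from -0.31 to -0.21.

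Over all genes, rises and falls numbered 1531 and 2883 centred on the library median, 2022 and 1883 after quantile normalization, 2235 and 1518 centred on the median deviation, and 1968 rises without the lowest 25% of genes; with a library left out they ranged from 1613 to 3729 and 303 to 486. Centring on the library median moved every log2 change by -0.13, while the median change over all genes was 0.0596 on the deposited scale. The added 0.01 shrinks the log2 changes of low scores, so the same step weighs more on them. Rps6ka2 and Arf4 turned below 0 although their ratios were 1.78 and 1.69, against a median of 1.11 over all genes. The part of the added 0.01 in the falls was not tested, nor were the causes of the other differences.

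Among the other transcription factors, 0 rose centred on the library median or after quantile normalization, and 0 to 2 rose and 1 to 3 fell with a library left out. Effectors numbered 3 rises and 6 falls centred on the library median, 4 and 5 after quantile normalization, 5 and 4 centred on the median deviation, 4 rises without the lowest 25% of genes, 5 rises without a pseudocount (on genes whose mean score reached 0.002), and 5 to 8 rises and 0 to 1 falls with a library left out. Upstream regulators numbered 4 rises and 10 falls centred on the library median, 12 and 2 after quantile normalization, and 12 and 3 centred on the median deviation. They numbered 3 rises and 0 falls without the lowest 25% of genes, and 0 falls with eBayes without trend. With a library left out they numbered 6 to 17 rises and 1 fall. Of the other named genes, Arf4 (-0.013) and Rps6ka2 (-0.00093) turned below 0 centred on the library median, as did Snrnp70 (-0.053), which was also -0.063 after quantile normalization. The call of Bhlhe40 also ended with a pseudocount of 0.1, without the lowest 25% of genes and with eBayes without trend (highest adjusted p = 0.0684).

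Over all genes, deviations of libraries with equal replicate numbers correlated at -0.0712, 0.0376 and -0.0201 for numbers 1, 2 and 3. Those with unequal numbers correlated at -0.0431 to 0.0642, so no pairing showed over all genes. For the members, the limma adjusted p with the block was lower for Egr2, Fosb, Npas4 and Arc (0.104, 0.142, 0.139 and 0.869). It was higher for Fos and Nr4a1 (0.143 and 0.121), and none of these genes passed. With the replicate number as a block, 1770 genes rose and 328 fell, 1 other transcription factor fell, 4 effectors rose and 0 fell, and 8 upstream regulators rose and 0 fell. Egr3 kept its call with the block (adjusted p = 0.0436), while Bhlhe40, Inhba, Mcl1, Myc and Dusp5 no longer passed (0.137, 0.0669, 0.0646, 0.0512 and 0.0668). The unknown depth and the 4 decimals of the scores limit the lowest values.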
